A study of Mus musculus with 17 samples.

Results

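The distal end of mouse chromosome 2 was examined through the loop anchors that start at or past 150 Mb in mm9, in H3K27ac HiChIP of embryoid bodies. Anchors are the regions joined by loops, and those of all 17 libraries were joined where they overlapped. This gave 3295 anchors on the distal segment among 216081 in all, or 1.52%. The segment spans 31.7 Mb of a chromosome of 181748087 bp. The segment was chosen by the number of read pairs per anchor in bulk against cluster2, so every value of that contrast below is a description and supports nothing, the calls of the edgeR fit included.

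The embryoid bodies were grown in hanging drops from R1 mouse embryonic stem cells, a line from ATCC, and all libraries come from day 4 of treatment with 0.5 uM retinoic acid. The 12 bulk libraries hold unsorted cells, and the 5 libraries called cluster2 in the labels hold cells sorted by FACS as positive for both EpCAM and CD38, gathered by the methods in repeated sorts. No untreated control is among these libraries, and all cells derive from a single cell line. Between 65178 and 241202 read pairs per bulk library lay in loops, against 50508 to 118179 per cluster2 library. Nothing in the labels says that the bulk libraries are separate cultures, so p-values measure only the spread between these libraries, which may be technical. The counts per anchor of all 66 pairs of bulk libraries and all 10 pairs of cluster2 libraries differed by more than sampling noise in a chi-square test, so no library was counted as a copy of another. No intervals are given for single counts, because PCR copies of a molecule add read pairs without adding information.

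Acetylation of histone H3 at lysine 27 (H3K27ac) is found at promoters and enhancers that are in use. HiChIP ligates DNA ends that lie close together in the nucleus and then pulls down chromatin with an antibody, so a read pair reports a contact in which the mark was present. A loop is a pair of anchors with its read pairs, and a loop with many read pairs may reflect a frequent contact, strongly marked chromatin or both. Retinoic acid binds nuclear receptors, and these recruit coactivators of the family to which Ncoa3, a gene of the segment, belongs.

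Sorted cells were first set against their markers, as read pairs per 1000000 read pairs in loops (CPM) at each gene's start site. The summed level of Epcam and Cd38 ran from 93.1 to 262 CPM in cluster2 and from 0 to 69.8 CPM in bulk, but neither gene passed the test alone. Calls by edgeR are relative to the other genes in the table, which CPM is not. Of 6 extraembryonic endoderm markers 3 were called higher in cluster2 (Gata4, Foxa2 and Col4a1) and none was lower, with a summed level of 1515 to 2240 CPM against 123 to 335 CPM in bulk. Of 6 embryonic stem cell markers 2 were higher and 2 lower, and Nanog had no read pair in cluster2. Of 6 neural markers 4 had an anchor and 2 of these were lower in cluster2, with summed levels of 416 to 509 CPM against 277 to 718 CPM. The part of these cell types in the results below was not tested.

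Every edge of the 3295 anchors, at the start and at the end, lay on the 4-base site GATC of the reference, so an anchor is a run of whole restriction fragments. The segment held 79279 such sites. The 40 bases shown next lie across the start edges of the anchors on which the results turn, on the plus strand of mm9, with GATC in capitals. They are the anchor with the most bulk read pairs (chr2:165709202-165713877), the anchor with the most bulk read pairs over Ncoa3 (chr2:165824582-165829199), the first anchor of the loop with the most bulk read pairs (chr2:180489218-180494666) and the second anchor of the loop with the most cluster2 read pairs (chr2:157247691-157252654).
Zmynd8 anchor: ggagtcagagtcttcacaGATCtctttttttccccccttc
Ncoa3 anchor: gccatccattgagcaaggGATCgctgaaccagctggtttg
leading bulk loop, first anchor: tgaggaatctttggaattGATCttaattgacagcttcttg
Src anchor: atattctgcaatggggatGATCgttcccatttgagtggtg

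The 250 bases before the most upstream annotated start site of Zmynd8, the gene with the most bulk read pairs, Ncoa3, whose intronic anchor is among the 10 leading bulk anchors, and Src and Rbm39, at the 2 leading cluster2 loops, are shown next in the direction of the gene, with CG dinucleotides in capitals. They lie at chr2:165724517-165724766 on the minus strand (Zmynd8), chr2:165817886-165818135 on the plus strand (Ncoa3), chr2:157243930-157244179 on the plus strand (Src) and chr2:156005975-156006224 on the minus strand (Rbm39), and hold no annotated exon.
Zmynd8: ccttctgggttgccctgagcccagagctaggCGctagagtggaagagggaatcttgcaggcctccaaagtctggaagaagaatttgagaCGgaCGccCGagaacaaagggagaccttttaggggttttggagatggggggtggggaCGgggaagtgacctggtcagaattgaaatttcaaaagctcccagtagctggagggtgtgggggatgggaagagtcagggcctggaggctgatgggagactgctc
Ncoa3: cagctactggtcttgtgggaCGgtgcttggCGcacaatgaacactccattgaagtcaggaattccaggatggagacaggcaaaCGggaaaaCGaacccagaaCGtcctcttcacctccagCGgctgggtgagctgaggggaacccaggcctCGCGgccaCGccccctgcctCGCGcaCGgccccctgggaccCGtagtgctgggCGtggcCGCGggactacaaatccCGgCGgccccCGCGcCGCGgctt
Src: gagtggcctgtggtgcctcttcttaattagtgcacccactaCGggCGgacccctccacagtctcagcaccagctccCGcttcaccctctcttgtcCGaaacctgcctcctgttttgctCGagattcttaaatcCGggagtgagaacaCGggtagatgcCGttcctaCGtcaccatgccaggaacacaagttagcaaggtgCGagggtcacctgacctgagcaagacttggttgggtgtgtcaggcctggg
Rbm39: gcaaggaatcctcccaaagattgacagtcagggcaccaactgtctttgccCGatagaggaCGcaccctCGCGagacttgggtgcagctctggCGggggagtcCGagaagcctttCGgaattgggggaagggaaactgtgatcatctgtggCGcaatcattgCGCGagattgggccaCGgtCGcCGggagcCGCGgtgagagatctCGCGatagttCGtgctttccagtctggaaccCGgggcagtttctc
The Zmynd8 window held 5 CG, a number that 64.2% of 22367 protein-coding genes reach or pass in the same window. The Src window held 10 CG (reached by 47.4% of genes), the Rbm39 window 19 (23.5%) and the Ncoa3 window 22 (17.4%). The motif CG reads the same on both strands and matches do not overlap. GATC was absent from the Zmynd8, Ncoa3 and Src windows and present 2 times in the Rbm39 window, against at least 1 match in 40.1% of the windows of all genes.

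All 3295 anchors were used by bulk loops and 357 of them, or 10.8%, also by cluster2 loops. Of the other autosomal anchors that serve as the reference below, 6.92% were used by both groups. Cluster2 loops used 904 of 13661 anchors on chromosome 2 before 150 Mb and 15082 of 216081 in all. Their share of anchors in use was thus larger on the segment. A start site lay within 5 kb of 725 segment anchors. The median segment anchor was 2289 bp wide with a GC content of 48.1%, against 43.9% over all anchors. The segment took part in 49574 loops, 4.09% of all loops, and 49445 of these had both anchors in it. Bulk libraries had read pairs in 48364 of the loops and cluster2 libraries in 2748, with 1538 in common. Pooled over libraries the loops held 83084 bulk and 9222 cluster2 read pairs.

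Per anchor in use, bulk libraries placed far more read pairs on the segment than elsewhere, and cluster2 libraries did not. Here and below, levels per anchor count only anchors that loops of the same group used. On the segment these were 3295 in bulk and 357 in cluster2. Each read pair was counted at both of its anchors, and the number per anchor was divided by that over the other autosomes, leaving out chromosome 1 from 130 Mb, which was chosen on the same contrast. This ratio ranged from 2.63 to 5.38 over the 12 bulk libraries with a median of 3.77. In cluster2 it was 0.972, 0.939, 0.914, 0.941 and 0.909. The groups did not overlap, and the lowest bulk library stood above every cluster2 library. The means were 3.92 ± 0.811 (SD, n = 12) and 0.935 ± 0.0252 (SD, n = 5). In counts this was 4.20 ± 1.64 read pairs per segment anchor in bulk against 1.11 ± 0.467 elsewhere, and 10.3 ± 4.00 against 11.01 ± 4.11 in cluster2. Member loops took 5.28% ± 0.938 of the bulk read pairs and 2.25% ± 0.0605 of the cluster2 read pairs. In unsorted cells, fewer cells of a type and fewer contacts per cell cannot be told apart.

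Denominators matter for the cluster2 value. Against the part of chromosome 2 before 150 Mb the ratio was 3.79 ± 0.718 in bulk and 1.21 ± 0.0366 in cluster2. Per Mb of sequence in place of per anchor it was 4.62 ± 0.954 and 1.72 ± 0.0463, so cluster2 also placed more read pairs on a Mb of the segment than on a Mb of other autosomes. Over anchors that both groups used, the bulk ratio was 2.60 ± 0.474, with a range from 1.93 to 3.39, and the cluster2 ratio was 0.935 ± 0.0251.

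**Figure D1:**
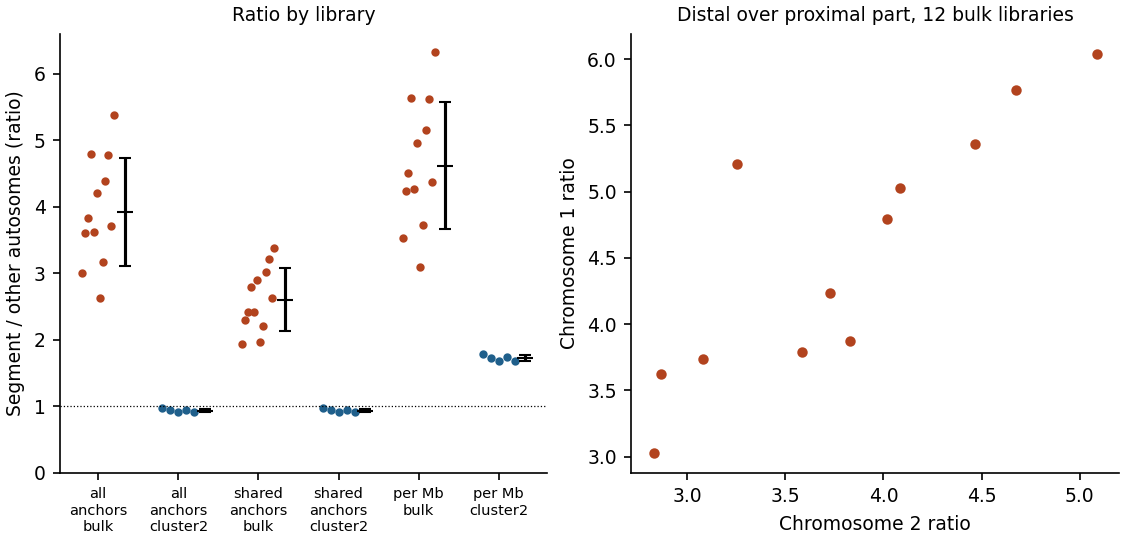
Left, ratio of read pairs per anchor used by the group's loops (or per Mb) in the segment to that over other autosomes, 1 point per library. Mean and SD stand beside the points, and the dotted line is at 1. Right, ratio of the distal to the proximal part of chromosome 1 against that of chromosome 2 in each of the 12 bulk libraries. The bulk points of the first column lie between 2.63 and 5.38 and the cluster2 points between 0.909 and 0.972, and both axes on the right run together (r = 0.853).

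Bulk libraries differed in the size of the excess, and the excess on chromosome 1 from 130 Mb differed with it. The ratio of distal to proximal read pairs per anchor ran from 2.83 to 5.09 on chromosome 2 and from 3.03 to 6.04 on chromosome 1, each taken within its own chromosome. Over the 12 libraries the ratios correlated with Pearson's r = 0.853 (permutation test, two-sided p = 0.0006, adjusted p = 0.003) and Spearman's rho = 0.888 (permutation p = 0.00024, adjusted p = 0.0012). Without the 2 libraries farthest from the median, r was 0.741 (permutation p = 0.0172) and rho 0.806 (permutation p = 0.00816). Both parts were chosen for their bulk level in these libraries, so the ratios are not independent of that choice, and the p-values describe only how single libraries vary together. The ratios share a library and its depth but no anchors. A total of 5 relations was computed, of which 2 were added after the values were seen, and p-values were adjusted over all 5. Library total correlated with neither ratio past the threshold (chromosome 2, r = -0.366, rho = -0.392, permutation adjusted p = 0.296 and 0.259; chromosome 1, r = -0.564, rho = -0.531, adjusted p = 0.141 and 0.134). Mean GC of the loop ends outside both distal parts gave r = 0.452 and rho = 0.545 with the chromosome 2 ratio (permutation adjusted p = 0.24 and 0.134), and the share of those ends on promoter anchors gave r = 0.213 and rho = 0.294 (adjusted p = 0.495 and 0.351). Without the 2 farthest libraries these 4 values of r were -0.198, -0.411, 0.365 and -0.0222.

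In windows of 1 Mb, the bulk signal was high along nearly the whole segment. Pooled over the 12 libraries, the 142 windows before 150 Mb that held at least 10 anchors had a median of 10.6 read pairs per anchor, from 1.23 to 58.3. The 30 such windows from 150 Mb had a median of 42.1, from 10.5 to 126. Gene density differed too, with a median of 13 genes starting in a window of the segment and 6 before it. In cluster2, per anchor that cluster2 loops used, the medians were 39.5 over 26 windows and 25.8 over 87 windows. The gain therefore ran in the same direction per window in both groups, though cluster2 windows before 150 Mb with fewer than 3 anchors are not in this median.

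The window at 165 Mb, which holds Zmynd8 and Ncoa3, was the highest of the segment with 126 bulk read pairs per anchor over 134 anchors. It ranked 3 among 2311 autosomal windows. In single libraries it had 10.5 ± 4.49 read pairs per anchor, between 6.45 and 20.1, and it held 10.2% of all bulk loop ends of the segment against 6.02% in cluster2. The next highest were the windows at 166 Mb (84.6), 180 Mb (80.7), 173 Mb (80.6) and 167 Mb (77.1). These 5 windows held 32.9% of the bulk ends. In cluster2 the 5 leading windows by ends were those at 152, 156, 157, 164 and 180 Mb, with 50.7% of the ends, and only the window at 180 Mb was in both sets. Among the 20 highest bulk windows of the autosomes, 5 lay in the segment and 11 on chromosome 1 from 130 Mb. These parts hold 30 and 64 of the 2311 windows ranked in bulk. None of the 20 highest cluster2 windows lay in the segment. It holds 26 of the 1314 windows ranked in cluster2, so a count of none is near that share.

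Some windows of the segment were low in bulk. The window at 159 Mb, with no annotated protein-coding start site, had 17.5 read pairs per anchor, the window at 161 Mb had 18.6 and that at 177 Mb had 16.9, all above the median before 150 Mb. No anchor lay in the window at 175 Mb and 1 in the window at 176 Mb. Start sites of 18 and 15 genes are annotated there, and unsequenced bases made up 5.75% and 9.25% of those windows. No anchor within 5 kb was found for all 18 genes at 175 Mb and for 14 of those at 176 Mb, and most of them carry provisional Gm names.

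**Figure D2:**
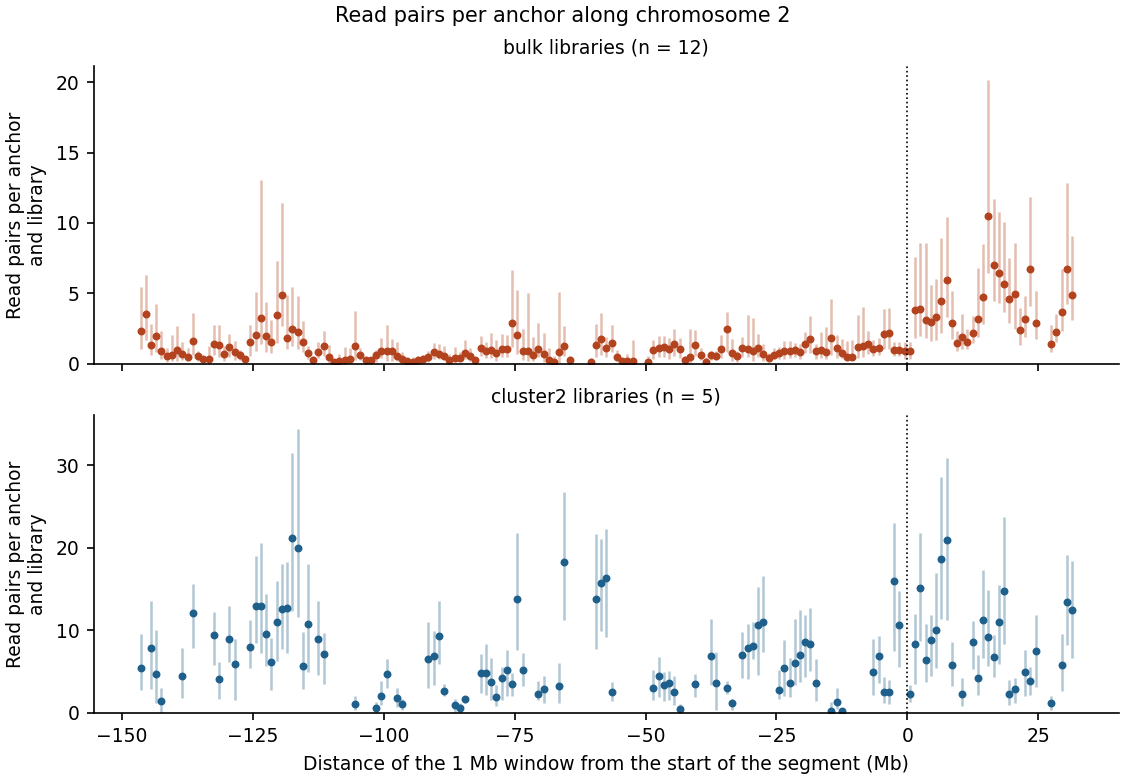
Read pairs per anchor and library in windows of 1 Mb against the distance of the window from 150 Mb (dotted line), for bulk (top, windows with at least 10 anchors) and cluster2 (bottom, at least 3 anchors). Points are means over libraries and vertical lines run from the lowest to the highest library. Bulk points rise after the first window of the segment and peak at a mean of 10.5, and the vertical axes differ between panels.

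Per anchor, the step in the bulk signal lay inside the segment, but on the ratio of bulk to cluster2 it did not. A single step was placed where it best divided the windows of chromosome 2 on the scale of log2(read pairs per anchor + 0.1). In 11 of 12 bulk libraries and in the pooled libraries the step fell at 151 Mb, with a height of 2.10 ± 0.262 on the log2 scale (SD, n = 12). Bulk library 9 was the exception, with the step at 130 Mb. On the ratio of bulk to cluster2, taken between shares of loop ends per window, the step fell at 133 Mb in 9 of 12 libraries. It fell there in the pooled libraries too, before the segment, but accounted for only 3.94% of the variance between windows. The pooled bulk step at 151 Mb accounted for 39.8%. The other libraries placed the step of the ratio at 17, 20 and 40 Mb. In cluster2 the step with the best division was at 44 Mb in 4 of 5 libraries and went down toward the end of the chromosome (mean -0.88). This place and its direction depended on the windows, since with windows of 0.5 Mb the step rose at 147.5 Mb in 4 of 5 cluster2 libraries, by 0.60 to 0.75, and with each loop counted once it rose at 147 Mb in 3 of 5. Per Mb in place of per anchor, however, the cluster2 step fell at 151 Mb in 4 of 5 libraries, as the bulk step did in 8 of 12.

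The window just before 150 Mb had 10.7 bulk read pairs per anchor and the first window of the segment had 10.5, and the segment's first 3 anchors held 4, 7 and 4 bulk read pairs against 3, 8 and 13 on the last 3 before it. The limit of 150 Mb itself therefore separates no levels. In the first window 7 of 12 bulk libraries were above their own median before 150 Mb, and in the window at 151 Mb all 12 were, at 46.0 pooled read pairs per anchor. In windows of 100 kb the pooled bulk level was 13.9 at 151.5 Mb, 6.43 at 151.6 Mb, 47.7 at 151.7 Mb, 103 at 151.8 Mb and 112 at 151.9 Mb. Cluster2 loop ends over the same 5 windows were 0, 0, 37, 209 and 389. In both groups loop ends became more numerous from 151.7 Mb.

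Genes on the low side of this rise include Psmf1, a proteasome inhibitor that starts at 151567046, and Rspo4, a secreted activator of Wnt signalling that starts at 151668663. Psmf1 had 39 bulk read pairs and Rspo4 had 4, and neither had any in cluster2. On the high side Fam110a starts at 151799130 and Scrt2, a neural transcriptional repressor, at 151907265. Fam110a had 421 bulk and 77 cluster2 read pairs, and Scrt2 had 306 and 29. Across the cut at 151 Mb there were 126 bulk read pairs in loops, with 749 inside the 2 Mb before it and 4158 inside the 2 Mb after it. At 150 Mb, where the level did not change, 129 read pairs crossed, with 802 before and 1771 after.

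The bulk excess was found in every class of anchor and every class of loop span. The ratio in bulk was 2.89 ± 0.558 (SD, n = 12) over 725 promoter anchors and 4.10 ± 0.885 over 2570 other anchors. Anchors that only bulk used had a ratio of 4.05 ± 0.904. Base composition was uneven, since 48.0% of segment anchors fell in the highest of 5 equal classes of all anchors by GC, against 19.6% of the other autosomal anchors. Within these classes, from low to high GC, the bulk ratio was 3.37, 2.98, 2.99, 3.12 and 2.63, all below the pooled ratio of 3.92. In 3 classes of anchor width, from narrow to wide, it was 4.14, 3.88 and 4.00. In cluster2 the ratio within classes ran from 0.857 (highest class of GC) to 1.24 (lowest class of GC, 4 anchors). By span the bulk ratio was 4.52 ± 1.68 at 5 to 10 kb and 3.48 ± 0.597 at 1000 to 2000 kb. Both come from the same libraries, so these SD do not measure the spread of the difference, which was not tested.

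**Figure D3:**
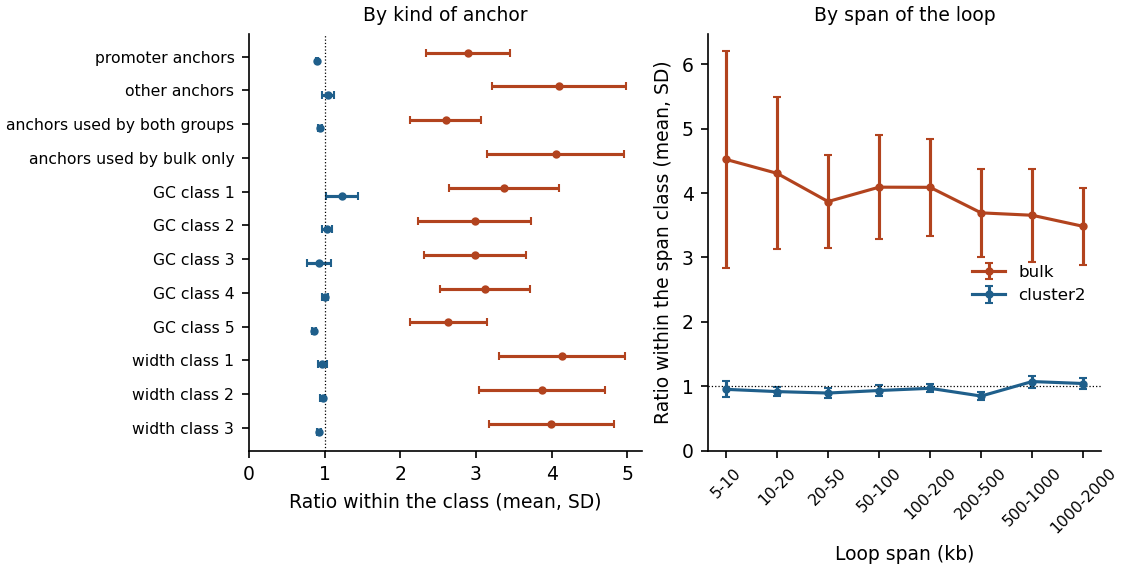
Ratio of read pairs per anchor in the segment to that over other autosomes, within classes of anchors (left) and of loop span (right, ratio of read pairs per anchor taken over loops of that span). Points are means and bars SD over 12 bulk or 5 cluster2 libraries, and the dotted line is at 1. The bulk means lie between 2.60 and 4.52 in all classes, and the cluster2 means between 0.848 and 1.24.

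Loops of the segment were somewhat shorter and more often at promoters in bulk than loops on the rest of chromosome 2. The median span, weighted by read pairs, was 116 kb in place of 143 kb (116073 ± 14553 bp against 143498 ± 12497 bp, SD, n = 12). Read pairs between 2 anchors without a promoter were 48.7% ± 2.46 of those in the segment and 56.6% ± 4.55 before it, and those between 2 promoter anchors were 13.9% ± 1.31 and 9.84% ± 1.85. In cluster2, 4.41% ± 0.533 of segment read pairs had no promoter anchor and 62.4% ± 1.54 had 2. A listed loop of the segment held on average 1.15 ± 0.0527 read pairs in a bulk library, and 90.1% ± 2.36 of the listed loops had 1 read pair.

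The bulk read pairs were spread thinly. Of 48364 loops, 35710 had 1 bulk read pair over all libraries and 164 had at least 20. The 10 leading loops held 0.905% of the bulk read pairs and the 100 leading loops 4.43%, and 9738 loops were needed for 50% of them. In cluster2 the 10 leading loops held 8.22% and the 100 leading loops 31.8%, and 276 loops sufficed. Among anchors, 541 of 3295 held 50% of the bulk ends, which is 16.4%, and 63 of 357 held 50% of the cluster2 ends, which is 17.6%.

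The loop with the most bulk read pairs joined chr2:180489218-180494666 and chr2:180497491-180500702, both outside annotated protein-coding genes. The nearest start site is that of Bhlhe23, a bHLH factor gene, at 16788 bp from the first anchor and 10752 bp from the second. It had 150 bulk read pairs, found in all 12 libraries, with a lowest level of 16.6 CPM, a median of 99.5 CPM and a highest of 200 CPM. It had none in cluster2, whose loops use the first of these anchors but not the second. No fold is given in such cases, since the files do not show whether the second anchor could have been used.

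Zmynd8, which codes for a reader of chromatin marks, had the most bulk read pairs of the segment's genes, summed over anchors near all its start sites. Of the 10 leading bulk loops, 5 had an anchor inside the gene. The strongest joined chr2:165709202-165713877 with chr2:165723380-165727346, both over annotated start sites and exons of Zmynd8. It had 95 bulk read pairs, from 32.9 to 111 CPM with a median of 47.6 CPM. Its cluster2 levels were 59.2, 81.4, 98.0, 98.99 and 116 CPM, from 36 read pairs. The groups overlapped. The remaining 4 loops ran from the first or second of these anchors to chr2:165729688-165732774 outside the gene (54 and 71 bulk read pairs), to chr2:165682159-165684902 (64) and to chr2:165720785-165722726 (61), all without cluster2 read pairs. Each of these was found in all 12 bulk libraries, and cluster2 loops do not use the 3 partner anchors.

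The anchor at chr2:165709202-165713877 had the most bulk read pairs of the segment, 927, through 192 loops. Its level was 394 to 889 CPM in bulk with a median of 564 CPM, and 398, 349, 431, 356 and 444 CPM in cluster2. Cluster2 libraries 2 and 4 fell below the bulk range and the other 3 lay near its low end. Of its bulk read pairs, 61.8% reached partners within 100 kb, 16.0% went over 500 kb and 57.1% ran toward the end of the chromosome. In 89 of the 192 loops there was 1 bulk read pair. Its cluster2 read pairs, 163, lay in 35 loops, led by the same partner at chr2:165723380-165727346 (36 read pairs) and by chr2:165686422-165688240 (35 cluster2 and 31 bulk read pairs).

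Summed over loops with an anchor within 5 kb of its start sites, Zmynd8 had 2259 bulk and 303 cluster2 read pairs. Its bulk level was 953 to 2053 CPM with a median of 1385 CPM, and its cluster2 levels were 795, 582, 686, 832 and 792 CPM. The lowest bulk library was above every cluster2 library. Over the whole gene with 5 kb on either side (chr2:165609654-165724516, minus strand), 18 anchors held 2.61% ± 0.395 of the bulk ends of the segment (SD, n = 12) and 2.43% ± 0.270 of its cluster2 ends (SD, n = 5). As a share of its own segment, the locus thus differed between groups by less than the spread between libraries.

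Ncoa3, a coactivator of nuclear receptors, lies distal to Zmynd8 at chr2:165818136-165898742 on the plus strand. Its start site ranked 53 among the 428 genes of the segment by bulk read pairs, with 282 in bulk and 61 in cluster2. For a gene with several start sites this sum can take in several anchors. The level was 92.3 to 244 CPM with a median of 178 CPM in bulk, and 186, 140, 118, 178 and 116 CPM in cluster2, and the groups overlapped. Its gene body carried more. The intronic anchor at chr2:165824582-165829199, 6445 bp from the start site, had 482 bulk read pairs in 132 loops, with 138 to 451 CPM and a median of 289 CPM. No cluster2 loop used this anchor. Its partners with the most bulk read pairs lay in the same gene, with 30, 29, 29 and 28 read pairs, and its own promoter anchor followed with 21. In all, 15 anchors at Ncoa3 held 1.48% ± 0.226 of the bulk ends of the segment and 0.944% ± 0.129 of the cluster2 ends.

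Loops between the anchors of Zmynd8 and those of Ncoa3 numbered 165 and held 438 bulk and 31 cluster2 read pairs. They were found in all 12 bulk and all 5 cluster2 libraries, and no single one had more than 20 bulk read pairs. Within Zmynd8 there were 1055 bulk and 143 cluster2 read pairs, and within Ncoa3 there were 476 and 29.

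Other leading anchors in bulk lay over genes of varied function. An anchor near the end of Src (chr2:157288404-157295356) had 649 bulk and 168 cluster2 read pairs. The anchor over the start of Sall4, a zinc finger factor of pluripotent cells (chr2:168587155-168595745), had 632 and 140. That in the body of Slc2a10, a glucose transporter gene, had 562 and 44, and that over the start of Sulf2, an enzyme that trims heparan sulfate, had 510 and 51. On the CPM scale Slc2a10 stood at 218 to 527 in bulk with a median of 334, and at 110, 105, 39.2, 139 and 126 in cluster2, without overlap. Sulf2 stood at 224 to 590 with a median of 304, and at 84.6, 116, 137, 178 and 145. Sall4 overlapped, with 257 to 595 in bulk and 330, 244, 392, 297 and 435 in cluster2. Besides the Ncoa3 anchor, those without cluster2 loops but with the most bulk read pairs were chr2:165682159-165684902 in Zmynd8 (454), chr2:157163039-157168529 over Ghrh (430), chr2:165729688-165732774 before Zmynd8 (360) and chr2:152517081-152526069 in H13 (312).

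Cluster2 was led by Src, which codes for a membrane-bound tyrosine kinase. The loop between chr2:157243258-157245288 and chr2:157247691-157252654, both over start sites of Src, had 146 cluster2 and 31 bulk read pairs. Its levels were 372, 279, 411, 297 and 406 CPM in cluster2 and 0 to 32.7 CPM with a median of 20.4 CPM in bulk. At the start sites of Src together the cluster2 levels were 1633, 1570, 1489, 1663 and 1738 CPM, and bulk ran from 259 to 530 CPM with a median of 383 CPM. All cluster2 libraries stood above all bulk libraries. With 9 anchors the Src locus held 5.54% ± 0.361 of the cluster2 ends of the segment and 0.950% ± 0.168 of the bulk ends.

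Further leading cluster2 loops joined Src to an intronic anchor of its neighbour Manbal at chr2:157201448-157204746 (78 cluster2 and 22 bulk read pairs), and Rbm39, a splicing factor gene, to Phf20 (142 and 85). A loop inside Dido1 had 80 and 62. A loop from the start of Id1, which codes for an inhibitor of bHLH factors, to the region downstream had 59 and 35. Bcl2l1, an inhibitor of apoptosis, had a loop with 45 and 18. The loop of Rbm39 with Phf20 ran from 20.1 to 105 CPM in bulk with a median of 53.7 CPM, and stood at 313, 291, 372, 376 and 406 CPM in cluster2. Each of the 10 leading cluster2 loops was higher in every cluster2 library than in every bulk library on the CPM scale. They were picked for their cluster2 read pairs, so high cluster2 levels follow in part from the ranking. The share of all loops without overlap was not counted. The CPM scale spreads the read pairs of a cluster2 library over far fewer loops. TMM scaling moved the median difference of all tested loops from 2.99 to 0.78 (log2, cluster2 over bulk). Of these 10 loops, 4 were called higher in cluster2 after TMM, which is near the 38.1% of all 5369 loops tested. All 4 have an anchor at Src or Id1.

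Differences between cluster2 and bulk, fitted in edgeR over all features with TMM scaling, are given for the segment beside the same over all features. Since the segment was chosen on this contrast, they describe it and support nothing. The fit is relative to the table. A read pair was counted at genes 0.663 ± 0.0772 times in a bulk library and 2.1 ± 0.0093 times in a cluster2 library, so a gene with equal CPM in both groups is lower in cluster2 in the fit. Cluster2 read pairs had promoters at both ends more often, and an anchor can count for several genes. The part of each in these counts was not tested. Library size alone in place of TMM moved the median over all anchors from -4.38 to -3.88 and that over all genes from -0.43 to -0.22. Of 3295 anchors, 2321 passed the filter on low counts, and of these 2223 were lower and 8 higher in cluster2 at an adjusted p under 0.05. Of the 2321, 1967 were used by no cluster2 loop and so passed the filter through bulk alone, and all 1967 were among those lower. Over all 43452 anchors tested, 75.5% were lower and 10.5% higher. Of 49574 loops, 270 passed the filter, with 146 lower and 23 higher, against 22.4% and 38.1% of all 5369 loops tested. This balance depends on the scaling, since library size alone gave 102 lower and 116 higher and moved the median over the segment's loops from -1.97 to 0.24, and that over all loops from 0.78 to 2.99. Of the 270 loops, 100 had no cluster2 read pair and so passed the filter through bulk alone. Among loops between anchors that both groups used, 48 of 174 tested were lower and 32 higher. Their median was 0.15, against 1.27 over all 4789 such loops. Of 428 genes with an anchor, 378 passed it, with 317 lower and 1 higher, against 40.8% and 20% of all 13712 genes tested. The median log2 difference (cluster2 over bulk) was -4.92 over the segment's anchors and -4.38 over all anchors, -1.97 and 0.78 over loops, and -2.23 and -0.43 over genes. Over anchors that both groups used, 173 of 332 segment anchors tested were lower and 7 higher, with a median of -0.87 against 0.53 over all 12510.

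The 15 genes with the most bulk read pairs at their start sites were Zmynd8, Sall4, Src, Zfp64, Prex1, Gnas, Myt1, Elmo2, Dido1, Rbm39, Zfp335, Rnf114, Dlgap4, Sulf2 and Id1. Apart from Zmynd8 they lay between 507 and 666 bulk read pairs, and their order was not tested. A gene sums the loops of every anchor near any of its annotated start sites, so a gene with several such anchors can rank higher. Per anchor over the gene and 5 kb on either side, Zmynd8 had 240 bulk loop ends. That was fewer than Sall4 (281), Id1 (271) and Zfp335 (270.5) and more than the rest of the 15. In cluster2 the 15 genes divided. Prex1, which activates the GTPase Rac, had 609 bulk and 49 cluster2 read pairs, and its levels were 257 to 568 CPM against 93.1, 105, 176, 98.99 and 145 CPM. Myt1, a zinc finger factor of neural cells, had 578 and 17, with 230 to 530 CPM against 33.8, 34.9, 98.0, 59.4 and 19.3 CPM. Elmo2, which acts in engulfment and cell migration, had 570 and 38. At these 3 genes every bulk library was above every cluster2 library, as at Zmynd8 and Sulf2. Sall4, Zfp64, Gnas, Rnf114 and Dlgap4 overlapped. At Src, Dido1, Rbm39, Zfp335 and Id1 every cluster2 library was higher. The share of all genes without overlap was not counted.

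Dido1, Rbm39, Zfp335 and Id1 were higher on the CPM scale in every cluster2 library than in every bulk library, yet called lower in the fit, so that their direction depends on the scale. For Id1 the levels were 195 to 438 CPM with a median of 285 CPM in bulk and 812, 814, 764, 673 and 1004 CPM in cluster2, and the fitted difference was -0.44 on the log2 scale. Src was not called in the fit (fitted log2 difference 0.19). The only gene called higher was 9230112E08Rik next to Arfgap1, with 65 cluster2 and 30 bulk read pairs and a log2 difference of 1.24. Among the leading cluster2 genes, 1110008F13Rik and 4930518I15Rik had the same 275 cluster2 and 368 bulk read pairs, because their start sites fall to the same anchors and cannot be told apart.

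**Figure D4:**
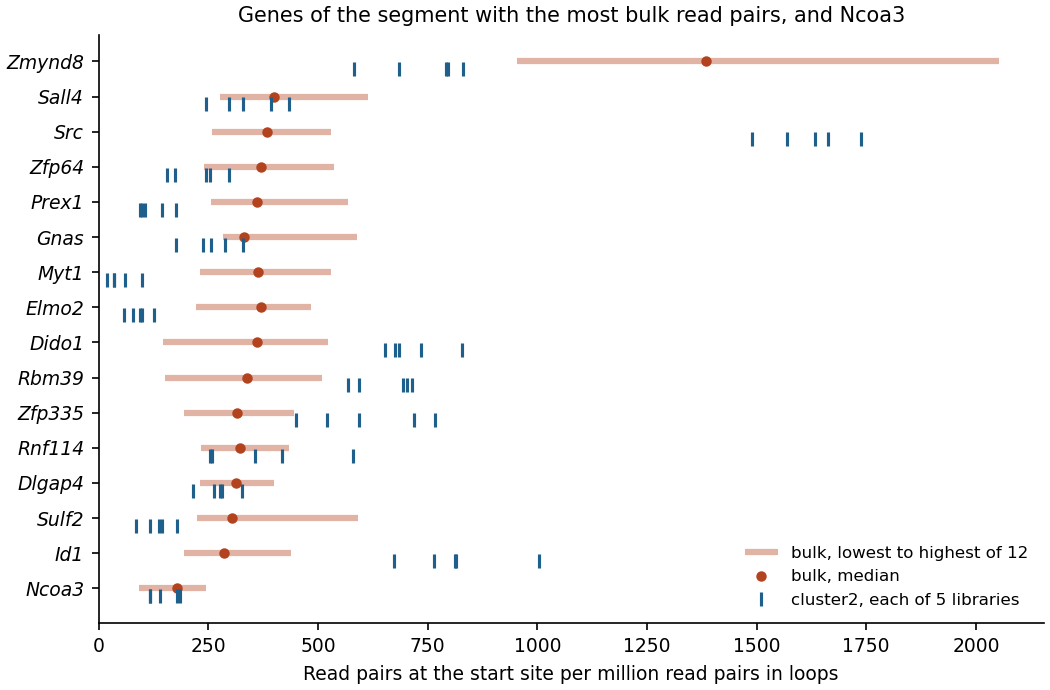
Read pairs at the start site in CPM, for the 15 genes of the segment with the most bulk read pairs and for Ncoa3. Bars run from the lowest to the highest of 12 bulk libraries, dots are bulk medians and ticks the 5 cluster2 libraries. Zmynd8 has a bulk median of 1385, and at Src the cluster2 ticks lie between 1489 and 1738.

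The gene lists below are read against the segment as a whole, where 83.9% of the 378 genes tested were lower in the fit, against 40.8% over all genes. Of these 378 genes, 120 had no cluster2 read pair and passed the filter through bulk alone. A further limit is the scale, since 106 of the 317 genes called lower had a higher mean CPM in cluster2 than in bulk.

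Among regulators of transcription and chromatin, 37 of 38 listed genes had an anchor and 36 were tested. Of these 33 were lower in cluster2 and none higher (edgeR, adjusted p under 0.05). That is 91.7%, against 83.9% over the segment. The median log2 difference was -2.20, near the -2.23 over the segment's genes, against -0.43 over all genes. Of the 36 genes 9 had no cluster2 read pair and passed the filter through bulk alone, and 11 of the 33 had a higher mean CPM in cluster2. Those without cluster2 read pairs include Hnf4a, a nuclear receptor of liver and gut (262 bulk read pairs), Tshz2, a zinc finger factor (188), Ncoa6, a coactivator (143), and Snai1, a repressor of epithelial genes (123). Hnf4a was found in all bulk libraries, at 82.8 to 307 CPM with a median of 148 CPM. Eya2, a transcriptional coactivator of developing sense organs and muscle, had 341 bulk and 11 cluster2 read pairs. Dnmt3b, a DNA methyltransferase of early embryos, was not called in the fit, with 71 and 36, and Gata5 did not either, with 32 and 23.

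All 17 neuronal genes tested were lower in cluster2 in the fit, with a median of -3.14, and 3 of them had no cluster2 read pair. Another 3 of the 17 had a higher mean CPM in cluster2. Besides Myt1 and Scrt2 they include Cdh4, a cadherin gene (106 bulk and 6 cluster2 read pairs), and Nnat, an imprinted gene of developing brain (176 and 68). On the CPM scale Nnat was higher in cluster2, with a mean of 167 against 109 CPM in bulk, and the groups overlapped. Of 14 epithelial, endoderm and matrix genes 12 were lower and none higher, with a median of -2.93. That is 85.7%, near the share over the segment, and 4 of the 14 had no cluster2 read pair. Of the 12 called lower, 3 had a higher mean CPM in cluster2. Lama5, a laminin subunit, had 337 bulk and 39 cluster2 read pairs, and Bmp7, a secreted growth factor, had 270 and 14. Bmp7 stood at 80.8 to 248 CPM in bulk and at 16.9, 23.3, 78.4, 59.4 and 29.0 CPM in cluster2, so the groups did not overlap.

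Of 15 tested genes for the cell cycle, the proteasome and translation, 11 were lower and none higher, with a median of -1.77. That is 73.3%, below the share over the segment, and 5 of the 11 had a higher mean CPM in cluster2. Rps21, a ribosomal protein gene, had 355 bulk and 55 cluster2 read pairs, and Psma7, a proteasome subunit, had 179 and 46. Psma7 differed little in mean CPM, with 114 in bulk and 117 in cluster2, though called lower in the fit. Rae1, of the nuclear pore, was not called, with 68 and 43. Of the 5 imprinted genes 4 were lower in the fit, with a median of -1.39, but 4 of the 5 had a higher mean CPM in cluster2. Gnas, which codes for a G protein subunit and has several promoters, had 608 bulk and 111 cluster2 read pairs, Blcap had 469 and 169, Mcts2 had 404 and 99, and H13, which was not called, had 203 and 123. The mean CPM in bulk and cluster2 was 297 and 406 at Blcap, 236 and 242 at Mcts2 and 116 and 310 at H13, so the direction at these genes depends on the scale. At H13 every cluster2 library was above every bulk library in CPM. Blcap and Nnat overlap, as do Mcts2 and H13, so loops at one can count for the other. In each of the 5 lists the median lay below that over all genes, as did the median over the segment's genes together (-2.23).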

How the data were processed

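H3K27ac HiChIP of 12 bulk and 5 cluster2 libraries was analysed. The authors mapped reads to mm9 with HiC-Pro and called peaks and loops with hichipper, and per library they deposited anchor pairs with counts of joining read pairs, without normalization. Which samples gave each anchor set is not given in the sources used here. Anchors overlapping by at least 1 bp were joined, and 700 read pairs with both ends in a joined anchor were left out. Starts are printed 1-based. Coordinates, sequence and gene annotation come from NCBIM37, the same assembly as mm9.

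Features with at least 20 read pairs in total, spread over at least 5 libraries, were kept. A gene sums the loops whose anchors come within 5 kb of its start sites. Loops, anchors and genes were each fitted over the whole table in R 4.3.3 with edgeR 4.0.16 (TMM, quasi-likelihood test, Benjamini-Hochberg adjustment). Levels are CPM of the read pairs in loops. Window steps per anchor or per Mb were fitted by least squares with a pseudocount of 0.1, and those on the ratio of bulk to cluster2 with a larger one. Correlations used 100000 permutations in Python 3.11.15 with scipy 1.17.1. The tests and the step were tested on simulated data. The named items are Zmynd8, Ncoa3, the genes around the step, members of the 5 gene lists, the 10 loops and 10 anchors with most read pairs in each group, the 15 genes leading in bulk and the 10 leading in cluster2. The 5 anchors without cluster2 loops, the loci and the partners were added after values were seen. Members and lists were chosen with earlier results of these data known. Replicate numbers do not pair the groups. Alternatives were DESeq2 1.42.0, other scaling, filters, windows and denominators, and each replicate left out, for the fits the cluster2 replicates alone. Some named genes are not reported here.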

Additional observations from a re-analysis of the deposited data

Results flagged for a closer look

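In groups of 5 libraries, 49 sets of cluster2 values were compared, covering the segment ratio and the leading loops, anchors and genes, and 1 held a library far from the others. At the anchor over the start of Manbal (chr2:157192423-157195008), cluster2 library 4 stood at 693 CPM and the other cluster2 libraries at 474 to 535 CPM. The gap was 0.721 of the whole range, against a limit of 0.71. Chance alone marks about 1 in 20 such sets.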

How the results depend on the processing

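Of 115 alternative values, 85 kept within the spread between libraries (ratios, the step), within 1.5 times (counts) or on the same side of the threshold (correlations); the 30 others follow. The cause was not tested unless the setting itself changes what is counted. The bulk ratio was 2.60 over shared anchors. The cluster2 ratio was 1.21 against chromosome 2 before 150 Mb and 1.72 per Mb. The bulk step moved to 133 Mb on the ratio of bulk to cluster2. Anchors higher in cluster2 numbered 14 with DESeq2, 127 with library size alone, 5 with TMM taken without the distal parts and 5 with at least 50 read pairs. Anchors lower numbered 999 with at least 50 read pairs and 173 over shared anchors. Loops higher numbered 11 with DESeq2, 116 with library size alone and 3 with at least 50 read pairs, and loops lower 20 with at least 50 read pairs, 5 without a filter and 48 over shared anchors. The balance of the loops thus turned, to 116 higher against 102 lower with library size alone and to 16 against 5 without a filter, and their median was 0.24 with library size alone and 0.15 over shared anchors, against -1.97. Genes higher numbered 2 with DESeq2, with library size alone and with a 2.5 kb window, and genes lower 134 over shared anchors. Shared anchors by construction leave out those without cluster2 read pairs, and a higher minimum tests fewer features.

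Replicate numbers do not pair the samples, since deviations of same-numbered libraries correlated at -0.0207 to 0.0294. The replicate block, fitted on 5 libraries a group, gave 1168 anchors lower, 3 loops higher, 43 loops lower and 254 genes lower, against 1180, 6, 49 and 264 in the same libraries without it, a fit added after the data were seen. Leaving out each library of the group in turn gave ratios of 3.79 to 4.04 in bulk and 0.926 to 0.941 in cluster2. For the fits only cluster2 libraries were left out in turn, which gave 7 to 8 anchors higher and 2208 to 2210 lower, 144 to 147 loops lower, 1 gene higher and 303 to 311 lower. Loops higher fell from 23 to 11 to 17, with 13 without cluster2 library 1 or 2, 14 without library 3, 17 without library 4 and 11 without library 5. Most single loops hold 1 read pair, which limits any statement on them.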
